A study of Homo sapiens with 6 samples.

Results

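YAP1 and WWTR1 (the gene of TAZ), their DNA-binding partner TEAD1 and 7 genes widely used as readouts of these factors were followed in T24 bladder cancer cells. The 10 genes, CTGF, CYR61, ANKRD1, AMOTL2, AJUBA, LATS2, AXL, YAP1, WWTR1 and TEAD1, were taken by name from a table of 56303 genes. All 10 were found, CTGF and CYR61 under these older names (now CCN2 and CCN1), and all 10 had enough counts to be tested among 21298 genes. T24 is an established human cell line derived from a bladder carcinoma. Its cells were transfected with a control siRNA (siNC) or an siRNA against the F-box gene FBXL6 (siFBXL6) for 48 h, with 3 samples per group, to ask what FBXL6 does in tumor growth and spread. The methods list 2 siRNAs against FBXL6 and do not name the one used here, so the numbers in the sample names were taken as replicate numbers. Libraries came from 2 μg of RNA per sample and a stranded mRNA kit. They held 58646515, 60967902 and 56814946 counts for siNC and 60968158, 60898556 and 60754015 for siFBXL6. The statistics section says in general that quantitative data come from 3 or more independent replicates, but nothing states for these samples that those of a group were separate cultures, so the p-values measure the spread between these samples, which may be technical.

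FBXL6 itself was counted 362, 414 and 398 times in the siNC libraries and 398, 344 and 350 times in the siFBXL6 libraries. The groups overlapped, and the difference was -0.13 on the log2 scale, with a standard error (SE) of 0.0875 and an adjusted p of 0.247 by edgeR's quasi-likelihood test. SLC52A2, a gene of the opposite strand, covers 31.7% of its exon bases, and GS1-393G12.13, on the same strand with 8 to 20 counts per library, covers 5.304%. The count of the target thus did not set the groups apart, so siNC and siFBXL6 libraries are named by their labels throughout. Levels are given in CPM, the count relative to the TMM-adjusted size of its library, as mean ± SD where groups are summarized. For β-actin (ACTB) they were 1168 ± 24.5 and 1168 ± 25.8 CPM (SD, n = 3 each), 0.00 on the log2 scale. All fold changes are the libraries labelled siFBXL6 over those labelled siNC. The cells carried epithelial markers, namely KRT7, KRT8, KRT18, KRT19, EPCAM and CDH1. Their levels summed to 3414, 3298 and 3399 CPM in siNC and 3090, 3070 and 3079 CPM in siFBXL6 libraries. KRT7 was the most abundant in CPM. In CPM per kb of exon, KRT19 was above KRT7 (means of 304 and 254 in siNC, 274 and 240.2 in siFBXL6 libraries). Of these 6 markers 4 were lower, CDH1 was higher and KRT18 did not pass the test. VIM, the mesenchymal intermediate filament gene, rose from 15.6 ± 0.513 to 25.4 ± 0.528 CPM (SD, n = 3 each). T24 is often described as high in VIM and low in CDH1, whereas CDH1 had 6777 to 8168 counts and VIM 866 to 1571 counts per library here. The methods state that the lines were authenticated by short tandem repeat profiling, and the identity of these cells was not checked from the counts. Of the leukocyte markers, PTPRC and CD14 had 14 to 43 and 18 to 47 counts per library and CD3E was at 0 in 5 of 6 libraries, and endothelial markers summed to at most 3.2 CPM. Of these, PECAM1 rose from 0.573 ± 0.126 to 1.39 ± 0.365 CPM (SD, n = 3 each), 1.28 on the log2 scale (adjusted p = 4.4e-05 by edgeR). In CPM, without division by exon length, PECAM1 was above VWF in every siFBXL6 library and under it in every siNC library. Fibroblast markers summed to 41.1 CPM at most. COL1A1 was the most abundant of them and was called lower in siFBXL6 libraries (log2 fold change -0.15, adjusted p = 0.00427 by edgeR). Smooth muscle markers summed to 7.4 CPM at most, led by MYH11 in CPM. In CPM per kb of exon, DES was above MYH11 (means of 0.785 and 0.289 in siNC, 0.934 and 0.306 in siFBXL6 libraries). The part of the epithelial marker and VIM differences in the results below was not tested. In RNA from bulk cells, fewer cells of a type and less RNA per cell cannot be told apart.

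YAP and TAZ are coactivators that carry the output of the Hippo pathway. When the kinases LATS1 and LATS2 phosphorylate them they are held in the cytoplasm, and when not they enter the nucleus and bind TEAD factors, which recognize a short DNA motif in promoters and enhancers. CCN1, CCN2 and ANKRD1 are among the targets most often measured, and AMOTL2, AJUBA and LATS2 are targets whose proteins act back on the pathway. In carcinoma cells the pathway is known for its response to cell density, matrix stiffness and actin tension.

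An adjusted p under 0.05 was found for 8 of the 10 genes, where 40.2% of all genes tested had one. Of these, 4 were higher (AXL, TEAD1, YAP1 and WWTR1), where 20.5% of all genes were, and 4 were lower (CTGF, ANKRD1, AMOTL2 and AJUBA), where 19.8% were. CYR61 and LATS2 did not pass. Among the 10829 genes with a mean CPM at least that of CTGF, the lowest of the 10 in CPM at 7.52, 57.9% were called, 29.8% higher and 28.1% lower. The median log2 fold change of the 10 genes was 0.11, with -0.01 over all genes tested, and the median absolute value was 0.20 with 0.18 over all genes and 0.137 over those 10829 genes. None of the 10 reached a 2-fold difference by edgeR or DESeq2, and a 2-fold difference with an adjusted p under 0.05 was found for 2.92% of genes by edgeR. The libraries of the groups did not overlap for any of the 10, 6 higher and 4 lower, while this held for 48.2% of all genes (24.3% higher and 23.9% lower). An exact two-sided permutation test of 3 libraries against 3 cannot give a p under 0.1, and each of the 10 genes was at 0.1.

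CYR61 and CTGF encode CCN1 and CCN2, secreted matrix proteins that bind integrins and heparan sulfate. CTGF lies on the minus strand of chromosome 6 of GRCh38, from 131948176 to 131951373. Its counts were 507, 594 and 518 in siNC and 336, 350 and 391 in siFBXL6 libraries, or 8.67, 9.62 and 9.02 against 5.56, 5.80 and 6.49 CPM. Every siFBXL6 library lay under every siNC library, and the siFBXL6 mean was 65.3% of the siNC mean. The log2 fold change was -0.61 (SE 0.0817, 95% interval -0.78 to -0.45, adjusted p = 1.56e-07 by edgeR), and 9.87% of the genes tested had a larger absolute change. A gene on the opposite strand, RP11-69I8.3, shares 8.34% of the exon bases of CTGF and had 9 to 34 counts per library. CYR61 (chromosome 1, 85580761 to 85583962, plus strand) was at 42.4, 42.7 and 44.1 CPM in siNC and 46.6, 46.1 and 44.6 CPM in siFBXL6 libraries. The siFBXL6 libraries were all above the siNC libraries, but siFBXL6 replicate 3 exceeded siNC replicate 3 only narrowly. Its log2 fold change was 0.09 (SE 0.0379, 95% interval 0.01 to 0.16, adjusted p = 0.0653 by edgeR). Without siNC replicate 3 the adjusted p was 0.0465 at a log2 fold change of 0.10, and over all alternatives it ran from 0.0465 to 0.201. The ratio of CTGF counts to CYR61 counts, which does not depend on the normalization, was 0.204, 0.225 and 0.204 in siNC and 0.119, 0.126 and 0.146 in siFBXL6 libraries. These secreted relatives thus stood in a different proportion in the groups, with no overlap (exact two-sided permutation test, p = 0.1, the smallest possible).

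ANKRD1 encodes an ankyrin repeat protein of the nucleus and the sarcomere that responds to stretch in muscle. It lies on the minus strand of chromosome 10, from 90912096 to 90921276, with no exon of another gene over its own. It was at 51.5, 48.3 and 48.8 CPM in siNC and 33.3, 32.8 and 35.1 CPM in siFBXL6 libraries. The groups were far apart relative to their spread, and no siFBXL6 library came near the lowest siNC library. The log2 fold change was -0.55 (SE 0.0404, 95% interval -0.64 to -0.47, adjusted p = 2.3e-13 by edgeR), close in size to that of CTGF. Among the genes tested, 12.1% had a larger absolute change.

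CTGF and ANKRD1 had the lowest fold changes of the 10 genes, YAP1 and AXL were both higher, and the DNA before their start sites is shown for comparison. RefSeq promoter sequences (GRCh38.p14, from 250 bases before to 50 bases after the start) were found for 8 of the 10 genes, with 12 entries in all, and not for CYR61 and TEAD1. The 250 bases before the start are printed 5′ to 3′ on the strand of the gene. Capitals mark the TEAD core motif GGAATG on the printed strand. The sequences lie at chr6:131951373-131951622, minus strand for CTGF, at chr10:90921088-90921337, minus strand for ANKRD1, at chr11:102110197-102110446, plus strand for YAP1, and at chr19:41218973-41219222, plus strand for the first of the 2 AXL entries.
CTGF: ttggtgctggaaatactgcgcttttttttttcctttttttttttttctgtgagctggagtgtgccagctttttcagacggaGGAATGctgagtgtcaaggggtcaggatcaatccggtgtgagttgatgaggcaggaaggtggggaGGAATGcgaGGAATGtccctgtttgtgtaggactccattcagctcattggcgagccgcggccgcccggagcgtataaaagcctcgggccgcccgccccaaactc
ANKRD1: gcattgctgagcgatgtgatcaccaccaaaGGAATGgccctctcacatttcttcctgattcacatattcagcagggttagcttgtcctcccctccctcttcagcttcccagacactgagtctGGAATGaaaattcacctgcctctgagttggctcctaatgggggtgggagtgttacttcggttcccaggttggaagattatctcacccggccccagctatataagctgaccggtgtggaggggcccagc
YAP1: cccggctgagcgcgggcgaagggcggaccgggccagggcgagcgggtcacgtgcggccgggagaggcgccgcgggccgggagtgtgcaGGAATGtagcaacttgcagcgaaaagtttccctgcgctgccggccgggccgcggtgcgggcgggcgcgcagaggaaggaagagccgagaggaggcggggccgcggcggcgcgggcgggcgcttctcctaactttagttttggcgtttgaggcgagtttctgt
AXL: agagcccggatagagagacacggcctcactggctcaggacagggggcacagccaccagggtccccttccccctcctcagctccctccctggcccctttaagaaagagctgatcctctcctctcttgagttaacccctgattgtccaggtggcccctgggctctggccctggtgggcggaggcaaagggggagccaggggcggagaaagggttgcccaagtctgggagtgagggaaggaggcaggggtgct

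The motif was searched as GGAATG and as its reverse complement CATTCC over the whole 300 bases. CTGF held 3 matches, which begin 169, 104 and 95 bases before the start. ANKRD1 held 2, which begin 220 and 128 bases before the start, and YAP1 held 1, at 162 bases. LATS2 held 1 just after its start site, and AMOTL2, AJUBA and AXL held 1 each in the second of their 2 entries and none in the first. Neither of the 2 WWTR1 entries held a match. Over all 35116 RefSeq promoters of this length, 14.0% held at least 1 match, 1.37% at least 2 and 0.128%, or 45 promoters, at least 3. The AP-1 motif, searched as TGACTCA and TGAGTCA, which are reverse complements of each other, was in none of the 12 entries and in 4.95% of all promoters. The CArG box, the motif of serum response factor, was likewise in none of the 12 and in 1.29% of all. A match describes the letters only, and no match says only that they are not in this window. The start sites of RefSeq lay 1 base from the first base counted for CTGF and 189 bases from it for ANKRD1. They lay farther inside the gene for the second entries of AMOTL2, AJUBA and AXL (1032, 5800 and 7552 bases), which hold a match, and for both WWTR1 entries (33441 and 78689 bases), which hold none.

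AXL encodes a receptor tyrosine kinase of the TAM family that binds GAS6 and is linked to invasion and drug resistance in carcinomas. It lies on the plus strand of chromosome 19, from 41219203 to 41261766. It was at 101, 101 and 97.4 CPM in siNC and 144, 146 and 146 CPM in siFBXL6 libraries. The siFBXL6 libraries were nearly equal and all far above the siNC libraries. The log2 fold change was 0.54 (SE 0.0308, 95% interval 0.48 to 0.60, adjusted p = 4.22e-16 by edgeR), the highest of the 10 genes and opposite in direction to CTGF and ANKRD1. CTD-2195B23.3, on the opposite strand over 1.3% of its exon bases, had 55 to 106 counts per library and was higher as well.

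AMOTL2 encodes a junction protein of the angiomotin family that binds YAP and keeps it from the nucleus. It lies on the minus strand of chromosome 3, from 134355874 to 134375479. It was at 108, 111 and 105 CPM in siNC and 95.9, 96.4 and 95.5 CPM in siFBXL6 libraries. The siFBXL6 libraries were closer to each other than the siNC libraries were, and all lay lower. Its log2 fold change was -0.17 (SE 0.0312, 95% interval -0.23 to -0.10, adjusted p = 4.4e-05 by edgeR). AJUBA (chromosome 14, 22971174 to 22982642, minus strand) encodes a LIM domain adaptor that binds and inhibits LATS kinases. It was at 53.2, 54.4 and 53.6 CPM in siNC and 48.4, 46.6 and 49.1 CPM in siFBXL6 libraries. Again every siFBXL6 library was lower, by a margin much smaller than for ANKRD1. Its log2 fold change was -0.16 (SE 0.0362, 95% interval -0.24 to -0.09, adjusted p = 0.000462 by edgeR). LATS2 (chromosome 13, 20973032 to 21061547, minus strand), the kinase that phosphorylates YAP, was at 15.7, 17.0 and 16.5 CPM in siNC and 17.5, 18.0 and 18.0 CPM in siFBXL6 libraries. The siFBXL6 libraries were all higher, with siNC replicate 2 close beneath them. The difference did not pass the test, at a log2 fold change of 0.12 (SE 0.0549, 95% interval 0.01 to 0.23, adjusted p = 0.076 by edgeR), and the adjusted p stayed between 0.0643 and 0.248 in the alternatives. Of these 3 genes, 2 were thus lower and LATS2 was not called. Over the exons of AMOTL2 and AJUBA lie RPL39P5 (3.13% of bases) and RP11-298I3.5 (0.836%) on the same strand, with 29 to 67 and 571 to 655 counts per library. RPL39P5 was called lower as well, as AMOTL2 was (log2 fold change -0.64, adjusted p = 0.0355 by edgeR).

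YAP1 and WWTR1 encode the coactivators YAP and TAZ, which have no DNA-binding domain of their own. YAP1 (chromosome 11, 102110461 to 102233423, plus strand) was at 164, 167 and 162 CPM in siNC and 191, 196 and 194 CPM in siFBXL6 libraries. All siFBXL6 libraries were higher, at 118% of the siNC mean. Its log2 fold change was 0.23 (SE 0.0299, 95% interval 0.17 to 0.30, adjusted p = 7.15e-08 by edgeR). WWTR1 (chromosome 3, 149517235 to 149736714, minus strand) was at 59.9, 58.8 and 61.3 CPM in siNC and 67.1, 67.8 and 67.3 CPM in siFBXL6 libraries. The siFBXL6 libraries were higher here too, at 112% of the siNC mean, with a log2 fold change of 0.17 (SE 0.0335, 95% interval 0.10 to 0.24, adjusted p = 0.000115 by edgeR). The ratio of YAP1 to WWTR1 counts was 2.74, 2.83 and 2.64 in siNC and 2.84, 2.89 and 2.88 in siFBXL6 libraries. It was slightly higher in every siFBXL6 library, but siFBXL6 replicate 1 was barely above siNC replicate 2. Both genes share exon bases with a gene on the opposite strand, YAP1 with RP11-864G5.3 (9.98% of its bases, 1040 to 1380 counts per library, also called higher) and WWTR1 with WWTR1-AS1 (9.45%, 142 to 187 counts). Since the use of strand in the counting is not stated, these partners cannot be fully told apart.

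TEAD1 encodes one of the TEAD transcription factors that bring YAP and TAZ to DNA. It lies on the plus strand of chromosome 11, from 12674591 to 12944483, with no overlapping exon of another gene. It was at 47.4, 47.4 and 44.6 CPM in siNC and 57.0, 57.7 and 58.8 CPM in siFBXL6 libraries. The groups were well apart, with every siFBXL6 library higher. The log2 fold change was 0.31 (SE 0.0367, 95% interval 0.24 to 0.39, adjusted p = 1.19e-08 by edgeR). YAP1, WWTR1 and TEAD1 were thus all higher in the libraries labelled siFBXL6, although TEAD2, the most abundant TEAD gene per length, was lower, while the targets CTGF, ANKRD1, AMOTL2 and AJUBA were lower and AXL was higher. Whether these directions are linked was not tested.

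To compare levels between genes, CPM was divided by the exon length in kb. On this scale the order in siNC libraries was YAP1 (26.1 ± 0.361 CPM per kb, mean ± SD, n = 3), ANKRD1 (25.0 ± 0.863), AXL (19.4 ± 0.441), AMOTL2 (18.0 ± 0.491), CYR61 (17.5 ± 0.373), AJUBA (8.99 ± 0.0975), WWTR1 (7.13 ± 0.15), TEAD1 (4.52 ± 0.158), CTGF (3.89 ± 0.205) and LATS2 (2.94 ± 0.114). The libraries of neighbours overlapped for YAP1 and ANKRD1 and for AMOTL2 and CYR61, and not for the other neighbours. In siFBXL6 libraries the order was YAP1 (30.7 ± 0.409), AXL (28.2 ± 0.264), CYR61 (18.6 ± 0.436), ANKRD1 (17.0 ± 0.606), AMOTL2 (16.0 ± 0.079), AJUBA (8.04 ± 0.215), WWTR1 (8.01 ± 0.0384), TEAD1 (5.62 ± 0.0892), LATS2 (3.20 ± 0.0531) and CTGF (2.54 ± 0.207). Here only AJUBA and WWTR1 overlapped as neighbours. ANKRD1 went from rank 2 to rank 4, CYR61 from rank 5 to rank 3, AXL from rank 3 to rank 2 and AMOTL2 from rank 4 to rank 5, and CTGF moved under LATS2 to the lowest rank.

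**Figure D1:**
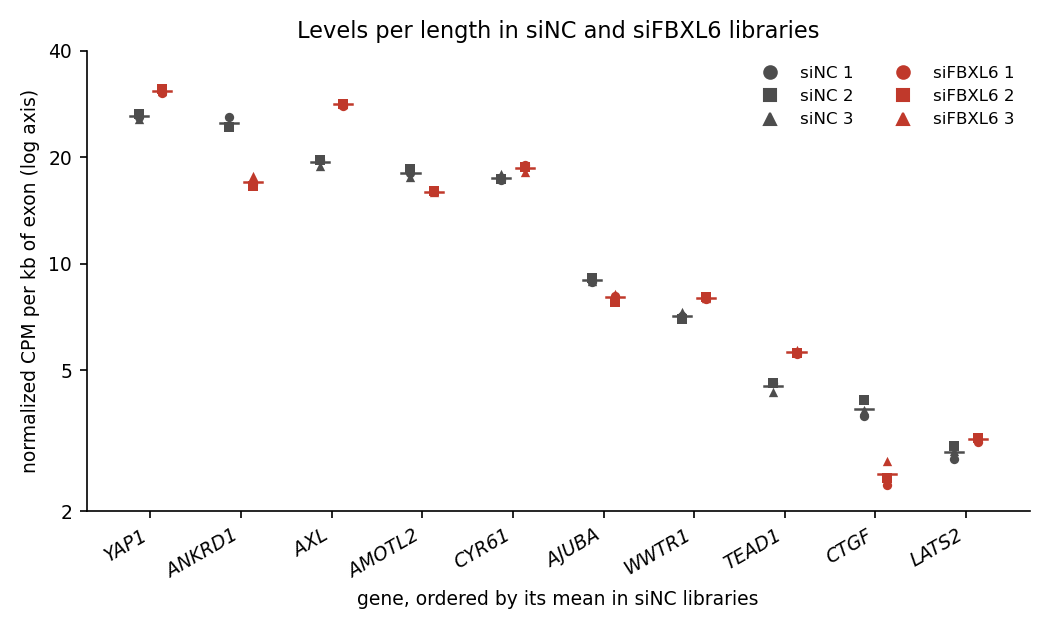
Normalized CPM per kb of exon (log axis) of the 10 genes in each library, siNC in grey and siFBXL6 in red, with the replicate number as the marker shape and the group mean as a short line. YAP1 is highest in both groups, at 26.1 and 30.7 CPM per kb, and the order of ANKRD1, AXL, AMOTL2 and CYR61, and that of CTGF and LATS2, differs between the groups.

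Several of the genes belong to families, and their share of the family level in CPM per kb was computed in each library. TEAD1 made up 23.1%, 22.2% and 21.5% of the TEAD level in siNC and 28.3%, 28.4% and 29.2% in siFBXL6 libraries, while TEAD2 went from 41.7% ± 0.644 to 35.8% ± 0.0529 (SD, n = 3 each). Per length, TEAD2 remained the most abundant in this family. The summed TEAD level was 20.3 ± 0.442 in siNC and 19.6 ± 0.13 CPM per kb in siFBXL6 libraries. These sums were close to each other but without overlap. Both results depend on the exon lengths, 10279 bases for TEAD1 and 2980 for TEAD2. In CPM, TEAD1 was above TEAD2 (means of 46.5 and 25.3 in siNC, 57.8 and 21.0 in siFBXL6 libraries). Summed in CPM, the TEAD genes were higher in every siFBXL6 library than in any siNC library. CTGF made up 16.4%, 18.0% and 16.4% of the CCN family level in siNC and 10.5%, 10.9% and 12.3% in siFBXL6 libraries. CYR61 was the main CCN gene, at 76.4% ± 0.2 and 82.2% ± 1.46, and the summed CCN level of 23.0 ± 0.465 and 22.7 ± 0.156 CPM per kb overlapped between the groups. AXL made up 78.2%, 78.8% and 78.4% of the TAM receptor level in siNC and 84.6%, 85.7% and 84.7% in siFBXL6 libraries, and the summed TAM level rose from 24.7 ± 0.553 to 33.2 ± 0.272 CPM per kb. Its paralogs TYRO3 and MERTK did not pass the test (log2 fold changes -0.07 and -0.13, adjusted p = 0.183 and 0.135 by edgeR). AMOTL2 made up 31.6%, 32.3% and 33.0% of the motin level in siNC and 25.1%, 25.5% and 25.1% in siFBXL6 libraries, the rest being almost all AMOTL1. The summed motin level rose from 55.8 ± 2.28 to 63.5 ± 0.342 CPM per kb, as AMOTL1 was at 126% and AMOTL2 at 89.1% of its siNC mean. For each of these 4 genes the shares did not overlap between the groups (exact two-sided permutation test, p = 0.1 each).

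**Figure D2:**
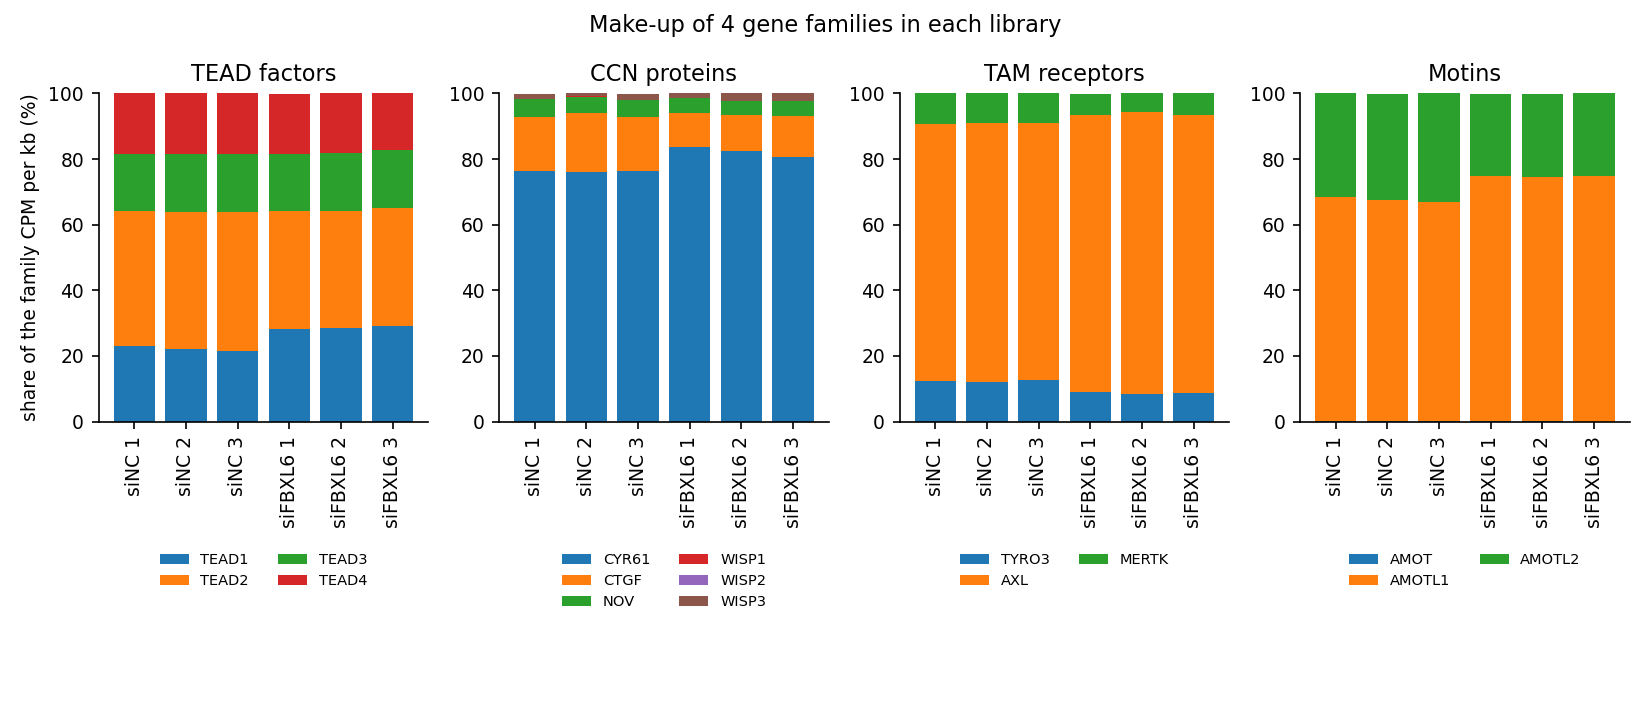
Stacked bars of the share (%) of each gene in the summed CPM per kb of its family in the 6 libraries, for the TEAD factors, the CCN proteins (NOV and WISP1 to WISP3 are the older names of CCN3 to CCN6), the TAM receptors and the motins. The shares of TEAD1 and AXL are larger, and those of CTGF and AMOTL2 smaller, in the siFBXL6 libraries.

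The rest of the pathway was read from gene lists. Of 22 genes of the Hippo kinase arm 21 were tested, 10 were higher and 4 lower (66.7% called), and their median log2 fold change was 0.01. Of all genes tested 40.2% were called, and 57.9% of those with a mean CPM at least that of CTGF. STK4, the MST1 kinase that activates LATS kinases, rose from 94.5 ± 2.42 to 147 ± 0.989 CPM (SD, n = 3 each). This was 0.64 on the log2 scale (adjusted p = 5.61e-18 by edgeR). TAOK1, a kinase upstream of it, rose by 0.38, and TNIK, a kinase of the MAP4K group, fell by 0.34 on the log2 scale (adjusted p = 7.1e-11 and 4.26e-10). LATS1 was higher by 0.26 on the log2 scale (adjusted p = 1.32e-05), with LATS2 not called. Of 21 junction and scaffold regulators, all tested, 9 were higher and 3 lower (57.1% called), with a median of 0.09, and without siNC replicate 2 only 1 was called lower. FAT4, a giant cadherin, fell from 5.71 ± 0.509 to 2.68 ± 0.0583 CPM (SD, n = 3 each), or by 1.09 on the log2 scale (adjusted p = 3e-10 by edgeR). TJP1, the tight junction protein ZO-1, AMOTL1 and SLMAP, a scaffold of the STRIPAK phosphatase complex, had log2 fold changes of 0.41, 0.33 and 0.23 (adjusted p = 2.84e-13, 1.3e-10 and 2.35e-07). AMOTL1 thus rose while its paralog AMOTL2 fell.

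Of the TEAD paralogs and the VGLL cofactors, which bind TEAD factors as YAP does, 7 of 7 were tested, 1 was higher and 1 lower (28.6% called, against 40.2% of all genes and 57.9% of those as well expressed as CTGF), with a median of -0.05. TEAD2 fell by 0.27 on the log2 scale (adjusted p = 2.28e-05 by edgeR), opposite to TEAD1. VGLL1 was higher, by 1.63 on the log2 scale (SE 0.431, adjusted p = 0.00258) at only 10, 8 and 4 counts in siNC and 20, 26 and 24 in siFBXL6 libraries, too few for a filter of 10 counts in every sample, which left 0 genes of this list higher. VGLL3 and TEAD4 did not pass (log2 fold changes -0.06 and -0.09, adjusted p = 0.195 and 0.362).

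Targets beyond the 10 genes also went both ways, beside the 40.2% of all genes called and the 57.9% of those as well expressed as CTGF. Of 16 genes of a YAP target signature 15 were tested, 6 were higher and 6 lower (80.0% called), with a median of 0.04. CCDC80, a secreted matrix protein gene, fell by 0.76 on the log2 scale, while DOCK5, a guanine nucleotide exchange factor for Rac, rose by 0.74 (adjusted p = 8.46e-19 and 1.26e-18 by edgeR). F3, the tissue factor gene, rose from 226 ± 5.18 to 336 ± 1.88 CPM (SD, n = 3 each). Its log2 fold change was 0.57, and that of NT5E (CD73), named after its value was seen, was 0.47. Of 10 other genes known as YAP targets all 10 were called, 7 higher and 3 lower, with a median of 0.27. AREG, the gene of the EGF receptor ligand amphiregulin, was among the higher ones with a log2 fold change of 0.49 (adjusted p = 1.34e-15 by edgeR). The 3 lower genes were EDN1, BIRC5 and DKK1, at -0.26, -0.39 and -0.27. With siNC replicate 2 left out, 7 genes of this list were called higher and 2 lower.

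Serum response factor (SRF) and its MRTF coactivators share several targets with YAP and TEAD. Of 15 genes of SRF, MRTF and the actin cytoskeleton, all tested, 4 were higher and 5 lower (60.0% called, against 40.2% of all genes and 57.9% of those as well expressed as CTGF), with a median of -0.03. ACTA2, the smooth muscle α-actin gene, fell from 9.05 ± 0.65 to 4.49 ± 0.191 CPM (SD, n = 3 each), or by 1.01 on the log2 scale (adjusted p = 9.53e-12 by edgeR). CNN1, the calponin gene of smooth muscle, went the other way with a log2 fold change of 1.47 (adjusted p = 0.000508) at 11 to 17 counts in siNC and 30 to 48 in siFBXL6 libraries. TPM1 (tropomyosin), CNN2 (another calponin) and FLNA (filamin A) had log2 fold changes of -0.33, -0.27 and 0.24 (adjusted p = 9.6e-12, 4.01e-09 and 2.8e-08). Of 10 paralogs of the genes and ligands of AXL 7 were tested, 1 was higher and 1 lower (28.6% called), with a median of -0.08. The AXL ligand GAS6 rose with its receptor, from 16.1 ± 1.09 to 22.5 ± 1.25 CPM (SD, n = 3 each). This was 0.48 on the log2 scale (adjusted p = 1.66e-08 by edgeR). PROS1, which encodes protein S, a ligand of the AXL paralogs, fell by 0.46 on the log2 scale (adjusted p = 1.68e-05). CCN6 did not pass (log2 fold change 0.47, adjusted p = 0.11), but was called without siNC replicate 3 (0.75, adjusted p = 0.0178) or siFBXL6 replicate 1 (0.68, adjusted p = 0.0292), while its log2 fold change fell to 0.20 without siNC replicate 2 (adjusted p = 0.554). The median over all 21298 genes tested was -0.01, with 4360 higher and 4209 lower.

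**Figure D3:**
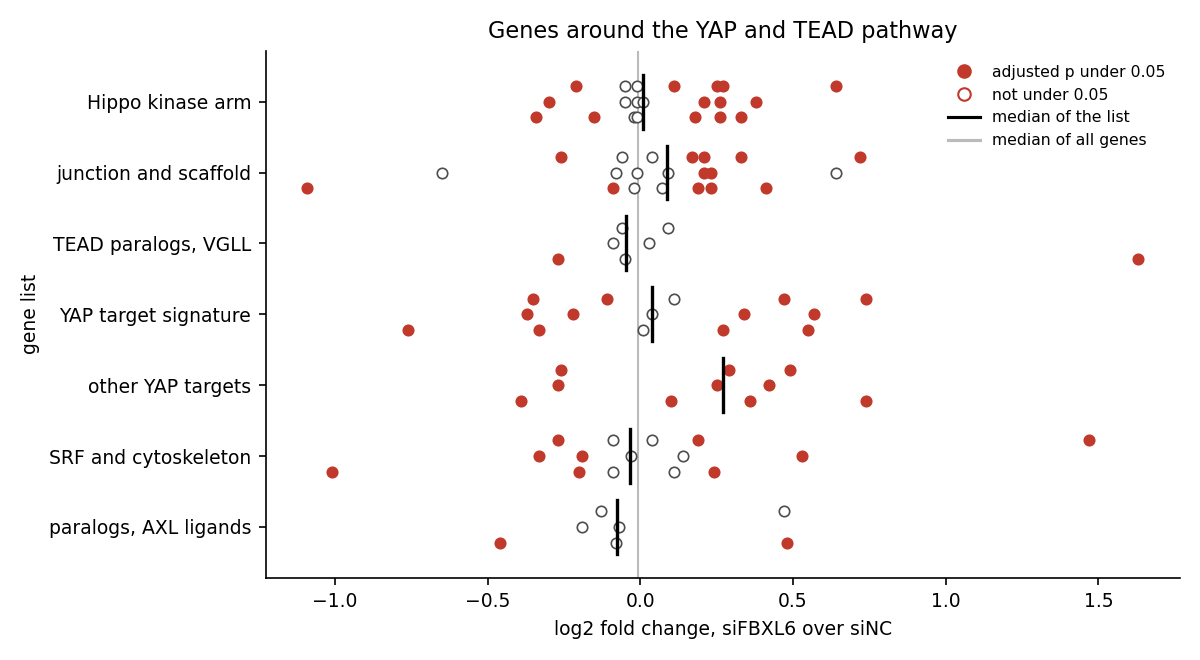
Log2 fold change of each tested gene of 7 lists, filled red where the adjusted p was under 0.05 and open where not; black lines are list medians and the grey line is the median of all genes tested. Dots are spread vertically within a list only to keep them apart. Every list has filled dots on both sides of 0, and the median of the other YAP targets, 0.27, is the highest.

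The genes most like CTGF and ANKRD1 in pattern were sought among the 16183 genes whose mean reached 1 CPM, by the root mean square difference over the 6 libraries of log2(CPM + 0.5) centred on the siNC mean. For CTGF they were ATG4A, RIBC1 and DPY19L2P2, with differences of 0.04, 0.0445 and 0.0502 and log2 fold changes of -0.63, -0.61 and -0.63. For ANKRD1 they were FAM3C, TRAPPC6A and FLOT1, with differences of 0.026, 0.0306 and 0.0325 and log2 fold changes of -0.54, -0.58 and -0.55. FAM3C, the closest of these 6, was at 595 to 622 CPM in siNC and 411 to 421 CPM in siFBXL6 libraries. Since these genes were picked for a similar pattern, their similar fold changes follow from the choice.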

How the data were processed

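RNA-seq counts of T24 cells were used, 3 samples labelled siNC and 3 labelled siFBXL6. The authors deposited counts per gene for the 6 libraries without normalization. The methods of the study name Trimmomatic (v0.36), HISAT2 and featureCounts (Subread v1.5.1) on GRCh38, whereas the submitters' processing notes name fastp 0.23.0, STAR and featureCounts (Subread 1.5.1). The annotation and the strand setting are not given in the sources used here.

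Library totals ran from 56814946 to 60968158 counts. Genes were filtered with filterByExpr at its default settings, normalized with TMM and tested with the quasi-likelihood test of edgeR 4.0.16 (limma 3.58.1, R 4.3.3) on condition alone, with Benjamini-Hochberg adjustment over all 21298 genes, and called at an adjusted p under 0.05. The test was checked on simulated data. Intervals are 95% intervals from the standard error implied by the test statistic. They and the p-values assume that the samples are independent. Exact permutation tests (scipy 1.17.1) are two-sided. List symbols were matched by name or RefSeq synonym. Promoters were taken from RefSeq. Plots were drawn with matplotlib 3.10.9.

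The members and lists were chosen with earlier results of these data known. Named were the 10 members, FBXL6 and ACTB. In each list, every called gene with a log2 fold change of 1 or more in size was named, and besides these the 3 with the smallest adjusted p, except that some results are left out of the text. For the 2 called members with the largest absolute change, the 3 genes nearest in pattern were named, and so were genes whose exons overlap a member or FBXL6. Cell type markers were a list of their own. LATS1, NT5E, EDN1, BIRC5, DKK1, TYRO3 and MERTK were added after their values were seen, as were the ratios, the family shares and the background among well expressed genes. The alternatives were DESeq2 1.42.0, other normalizations and filters, a block for the replicate number, the omission of each library in turn, and stricter thresholds.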

Additional observations from a re-analysis of the deposited data

How the results depend on the processing

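Of 130 values for the 10 members under 13 alternatives, 129 kept their direction and their side of the threshold. The exception was CYR61, called without siNC replicate 3 (0.10 on the log2 scale, adjusted p = 0.0465); with a library left out, its log2 fold change ran from 0.07 to 0.11. FBXL6 kept its side of the threshold in all 13, with a log2 fold change from -0.20 to -0.09. The lowest and highest log2 fold changes were -0.68 and -0.57 for CTGF, -0.58 and -0.53 for ANKRD1, and 0.52 and 0.55 for AXL. When a log2 fold change of 1 or more in size was required besides, the count of all genes called went from 8569 to 622 (378 higher and 244 lower) and that of the 10 genes from 8 to 0 (0 higher and 0 lower), since this alternative requires a larger change. At an adjusted p under 0.01, 8 of the 10 were still called, as were 6599 of all 21298 genes tested.

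No pairing by replicate number was seen in the counts. The correlations of the deviations of same-numbered libraries were -0.0626, 0.00497 and -0.00208, and no library correlated best with its own number. Such correlations cannot show whether same-numbered samples were handled together, which the labels do not say. With the replicate block 8408 genes were called, 8 of the 10 genes among them, and no call of the 10 changed. Upper-quartile factors and library size alone put 45.7% and 45.1% of all calls on the higher side, against 50.9% with TMM. CTGF, with the fewest counts of the 10 genes, had the largest standard error.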
